A study of Homo sapiens with 66 samples.

Results

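The loss of GANP was followed in 6 of the 66 RNA-seq libraries of the series, all from 1 line derived from DLD-1, which was established from a human colorectal cancer. The 6 libraries were taken by their labels: AID-HA-GANP1 cells after 3 h of auxin (1 mM), 3 replicates, and the untreated cells of the same line, 3 replicates. In this line GANP carries an auxin-inducible degron (AID) and an HA tag at its own gene, and the TIR1 ligase that recognises the degron is made from the RCC1 locus; both groups carry these changes, so the only labelled difference is auxin. The line was made by gene editing and represents 1 clone. Total RNA was depleted of ribosomal RNA before sequencing. AID-NXF1 and AID-TPR cells and the parental DLD-1 cells, each untreated or after 2 h of auxin (3 replicates per group), served for comparison; of the AID-TPR auxin and untreated libraries, those whose replicate number carries no label old were taken. As a measure of RNA decline, 3 AID-TPR libraries treated for 2 h with actinomycin D (ActD) and 3 untreated AID-TPR libraries labelled old were also used. The question was which RNAs change in amount within 3 h of auxin, as GANP is removed, and which do not.

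GANP, encoded by MCM3AP, is the scaffold of TREX-2, a complex on the inner face of the nuclear pore that also holds PCID2, ENY2, SEM1 and centrins. TREX-2 links transcription to export: messenger ribonucleoprotein particles that carry the export receptor NXF1 with its partner NXT1 are handed on at the nuclear basket, a structure built from TPR. Spliced messages acquire export adaptors of the THO/TREX complex during splicing, whereas messages without introns must recruit the export machinery in other ways. Replication-dependent histone messages stand apart, since most have neither introns nor a poly(A) tail and end in a stem-loop bound by SLBP.

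The degron acts on the protein, so the RNA of MCM3AP does not check the labels. MCM3AP was measured at 127, 136 and 132 CPM in the untreated libraries and at 148, 165 and 160 CPM after auxin, where CPM is a gene's count scaled to a common effective library size. The log2 fold change was 0.26 ± 0.07 (SE, n = 3 per group), with an adjusted p of 0.02 in the quasi-likelihood test of edgeR, adjusted by Benjamini-Hochberg over all genes tested, below the fold of 1.3 needed for a call. None of the 6 TREX-2 genes tested was called. PCID2 was at 45.1 ± 1.07 CPM (SD, n = 3) untreated and 45.8 ± 1.78 CPM after auxin, and its log2 fold change of 0.02 turned to -0.085 when libraries were scaled by their totals alone and to -0.003 without auxin replicate 1. Markers of the line were present: 8 of 10 colon epithelial genes passed the filter on low counts, their summed level was 7712 to 8143 CPM untreated and 8615 to 9402 CPM after auxin, and none was called. The summed levels of leukocyte, fibroblast and endothelial markers stayed below 6 CPM in every library.

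The 3 auxin libraries held 39292870 to 47492200 counts and the 3 untreated ones 26858492 to 32875244, so depth differed between the groups. When all 6 libraries were thinned to the smallest total, an alternative chosen after seeing the data, 2005 genes were called lower and 671 higher, against 2052 and 700 at full depth. No spike-in is given in the sources used here, so every change is relative to the other RNAs, and in bulk cells less RNA per cell and fewer cells making it cannot be told apart. Depth, the 3 h against 2 h of auxin and the clone differ between lines and cannot be told apart from the line.

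The larger share of called genes lost RNA after GANP degradation. Of 17812 genes tested, 2052 were called lower (11.5%) and 700 higher (3.93%), with calls defined by an adjusted p below 0.05 together with a change to 0.7 times or less, or 1.3 times or more. Lower calls were thus 74.56% of 2752, and 87.81% when libraries were scaled by their totals alone, which moved the median log2 fold change of all genes from 0.01 to -0.09. Changes were moderate: 610 genes fell and 128 rose at least 2-fold, and 18 fell and 14 rose at least 4-fold. The median log2 fold change was -0.81 over the genes called lower and 0.61 over those called higher, against 0.01 over all genes tested. Auxin and untreated CPM did not overlap for 2713 of the 2752 called genes, and for 45% of all genes tested.

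**Figure D1:**
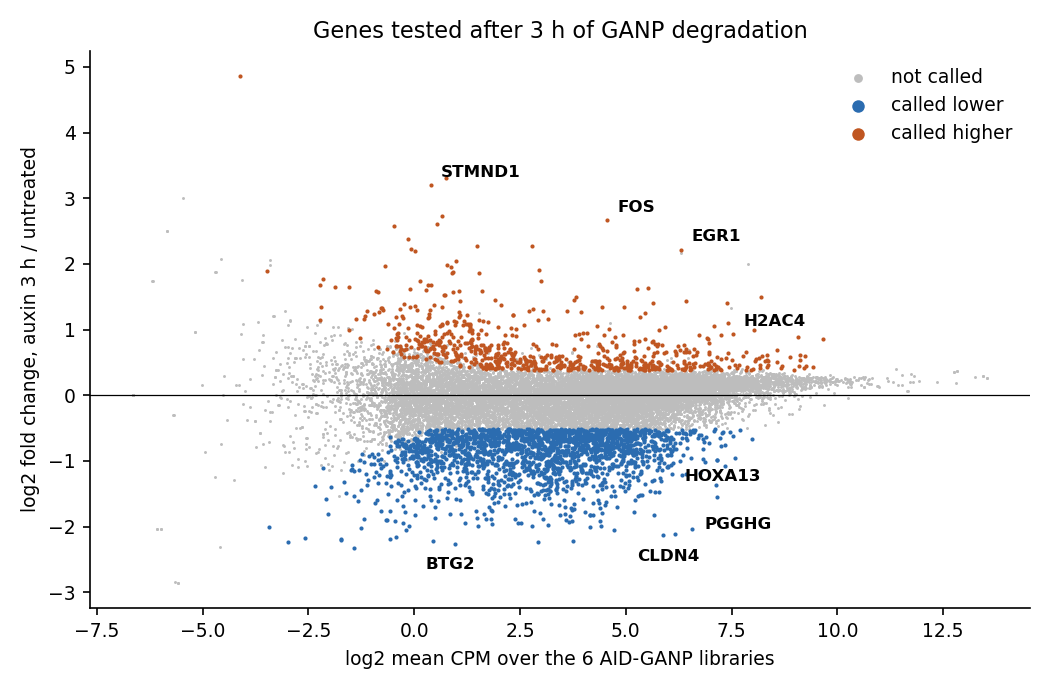
Log2 fold change after 3 h of auxin (y axis) against the log2 mean CPM over the 6 AID-GANP libraries (x axis), 1 point per gene, with genes called lower in blue and higher in orange. Blue points (2052 genes called lower in all) outnumber orange ones (700) over most of the range of levels, and both kinds thin out at the highest levels; sex-linked marker genes are not drawn.

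The genes that fell were short of introns. Among 13137 protein-coding genes, 1572 fell and 468 rose, and the median number of exons in the canonical transcript was 4 for those that fell, 9 for all tested and 11 for those that rose. Genes with 1 to 3 exons made up 39.38% of the protein-coding genes called lower and 12.55% of those tested. Of 234 genes with a single exon other than replication-dependent histone genes, 127 fell and 2 rose, with a median log2 fold change of -0.66. The share then declined with each class: 267 of 587 genes with 2 exons fell, 225 of 774 with 3, 312 of 1988 with 4 or 5, 353 of 3917 with 6 to 10, 208 of 3788 with 11 to 20, and 80 of 1795 with 21 or more. Rises went the other way, from 14 of 587 genes with 2 exons to 89 of 1795 with 21 or more.

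**Figure D2:**
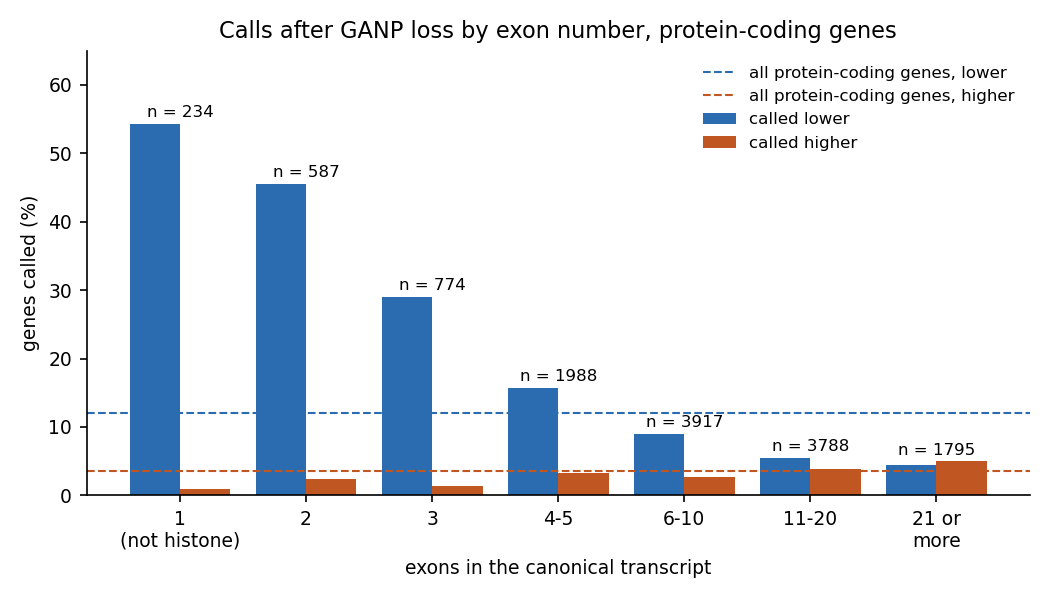
Percent of protein-coding genes called lower (blue) or higher (orange) after GANP loss, by the number of exons in the canonical transcript; dashed lines give the same shares over all protein-coding genes tested. The share called lower declines from 54.27% of 234 single-exon genes that are not replication-dependent histones to 4.457% of 1795 genes with 21 or more exons.

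Several other properties went along with exon number. In the fifth of protein-coding genes shortest by span (at most 10800 bp) 581 were called lower and 104 higher, and in the longest 89 and 152. Transcript length showed no such trend, with 259 lower calls in the shortest class, 383 in the middle one and 235 in the longest. By level, lower calls were 392, 524, 355, 222 and 79 over 5 classes of equal size, from the lowest to the highest untreated CPM. Within each of these classes of level, genes with 1 to 3 exons still had the larger share of lower calls, 32.36% in the lowest, 48.75% in the next and 15.34% in the highest, against 7.535%, 9.592% and 0.7868% for genes with 11 or more exons. Of the genes called lower, 1116 share exon bases with another gene, and how reads over such bases were counted is not given in the sources used here. Among the 864 genes with 1 to 3 exons and no shared exon bases, 333 (38.54%) fell and 43 rose, close to the 619 and 61 of all 1649 such genes.

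The order of response also followed how fast RNAs decline when transcription is blocked. The measure was the log2 fold change after 2 h of ActD, an inhibitor of RNA synthesis, in AID-TPR cells not given auxin. In the fifth of protein-coding genes with the steepest ActD decline, 601 of 2628 fell after GANP loss and 200 rose; in the fifth with the least decline the counts were 67 and 64. Exon number and ActD decline each went with the response within the other: among genes of the steepest decline 288 of 588 genes with 1 to 3 exons fell, against 74 of 956 with 11 or more. Among those of the least decline 21 of 206 and 18 of 1058 fell. These counts are descriptions, since the ActD libraries come from another line and were set against untreated libraries of that line labelled old. Mitochondrial genes had counts in both of these groups and none in the AID-GANP libraries. The ActD value was exactly 0 for some expressed genes, such as H2AC15 and ZBTB9 (61.15 and 17.93 CPM in untreated AID-GANP cells). It was also 0 as the median over all genes tested. Whether such genes had counts in the ActD and old libraries was not tested. Values of 0 were ranked with the rest and lie in the middle class (log2 -0.07 to 0.13). The classes quoted above hold none, but their limits depend on that ranking.

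The 10 largest falls included regulators of growth, junction proteins and metabolic genes. They were taken among called genes with a symbol, at least 50 counts on average and no overlap of the groups. Separation of the groups was thus fixed by the choice of these genes and is no separate evidence. BTG2 (chr1:203305491-203309602 in GRCh38, plus strand, 2 exons), an antiproliferative adaptor of the CCR4-NOT deadenylase, was at 2.90, 2.99 and 3.73 CPM untreated and at 0.587, 0.652 and 0.758 CPM after auxin. Its log2 fold change was -2.27 ± 0.18 (SE, adjusted p = 1.3e-05), and no auxin library reached the lowest untreated one. CLDN4, a tight junction claudin encoded by 1 exon, went from 103, 119 and 128 CPM to 23.7, 28.6 and 28.4 CPM, a log2 fold change of -2.11 ± 0.10 (adjusted p = 1.1e-06). Its 3 auxin values lay together, far below every untreated value. CLDN23, another single-exon claudin, fell by 1.99 on the log2 scale.

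The tumour suppressor AMER1, a negative regulator of Wnt signalling, was at 12.5 ± 0.631 CPM untreated and 2.65 ± 0.512 CPM after auxin (log2 -2.23 ± 0.14, adjusted p = 3.4e-06). FOXQ1, a forkhead transcription factor, went from 76.3, 114 and 95.6 CPM to 17.3, 27.7 and 20.6 CPM (log2 -2.12 ± 0.18, adjusted p = 1.4e-05). The groups were well apart for both. IER5 and HILPDA, a lipid droplet protein induced by hypoxia, fell by 2.05 and 2.21, and HILPDA shares exon bases with HILPDA-AS1, so part of its reads cannot be assigned. WDCP and ZNF579 both fell by 2.00. PGGHG, a glucosidase of hydroxylysine-linked sugars with 14 exons, was the exception in gene structure: it was at 152 ± 25.8 CPM untreated (SD, n = 3) and at 36.9 ± 3.52 CPM after auxin, with a log2 fold change of -2.04 ± 0.12 (adjusted p = 2.9e-06). Multi-exon genes with large falls further included ANO9 (23 exons, -1.78), GIGYF1 (27 exons, -1.53), TRIM68 (7 exons, -1.84) and the protease ADAMTS15 (8 exons, -1.94).

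**Figure D3:**
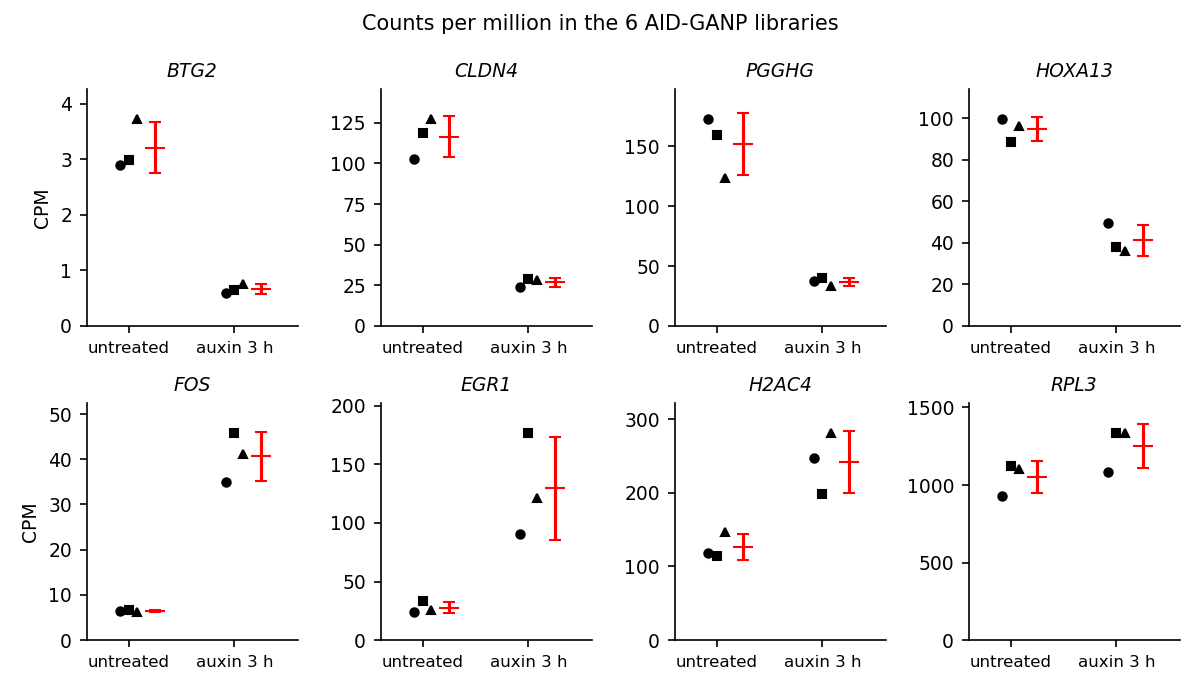
CPM in each of the 6 AID-GANP libraries for 8 genes (circle, square and triangle for replicates 1, 2 and 3; red bars, mean and SD of 3 libraries). BTG2, CLDN4, PGGHG and HOXA13 are lower and FOS, EGR1 and H2AC4 higher in all 3 auxin libraries, while the values of RPL3, a ribosomal protein gene, overlap between the groups.

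Several transcription factor families held falling genes. Of 377 ZNF genes tested, which encode C2H2 zinc finger proteins and include many repressors of transposable elements, 156 fell and 14 rose (41.38% and 3.714%, against 11.5% and 3.93% of all genes tested), with a median log2 fold change of -0.43. ZNF552 was at -1.93 and ZNF749 at -1.89, both sharing exon bases with other genes, and ZNF12 at -1.78; all were called lower, and ZNF12 went from 56.0, 56.3 and 58.3 CPM to 18.3, 15.9 and 15.3 CPM (adjusted p = 9.7e-07). The falls were not limited to the clusters on chromosome 19: 65 of 165 ZNF genes fell there and 91 of 212 elsewhere. Exon number divided this family too. Of ZNF genes with 1 to 3 exons 47 of 70 fell, of those with 4 or 5 exons 74 of 172, and of those with 6 or more 35 of 135. Near-identical copies within the family make single members less certain.

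The related ZBTB, ZSCAN and ZKSCAN genes showed 27 falls and 1 rise among 59 (45.76% and 1.695%), with a median log2 fold change of -0.49. The counts in this paragraph stand against 11.5% of all genes tested called lower and 3.93% called higher. ZKSCAN8 was at 27.8 ± 2.94 CPM untreated and 7.81 ± 1.63 CPM after auxin (log2 -1.83 ± 0.14). Of 26 HOX genes, which specify position along the body axis, 10 fell (38.46%) and none rose. HOXA13, the most posterior gene of its cluster, went from 99.7, 88.5 and 96.0 CPM to 49.5, 37.9 and 35.9 CPM (log2 -1.20 ± 0.11, adjusted p = 3.1e-05), and HOXA11 fell by 1.47. HOXA13 shares exon bases with HOTTIP, a noncoding RNA that was itself not called (log2 -0.42). Forkhead genes fell in 9 of 24 cases and rose in 1, with FOXC1 at -1.89 and FOXD1 at -1.21 beside FOXQ1. FOXD1 shares exon bases with FOXD1-AS1, and HOXA11 with HOXA11-AS. SOX4 (-0.95) and SOX12 (-0.56) fell among 6 SOX genes tested, and the call of SOX12 was lost without untreated replicate 3 (-0.49) or auxin replicate 1 (-0.41). The KLF genes went both ways, 4 lower and 3 higher of 13, with a median of -0.26 that turned to 0.62 among members whose span overlaps no other gene. KLF15 (-1.11), KLF9 (-0.95), KLF16 (-0.68) and KLF13 (-0.64) fell, while KLF10 (1.44), KLF4 (0.62) and KLF11 (0.44) rose, and KLF16 and KLF11 share exon bases with other genes.

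Of 7 genes of RNA decay regulators 5 fell (71.43%, against 11.5% of all genes tested). The list holds the BTG and TOB antiproliferative proteins, which bring the CCR4-NOT deadenylase to messages, and the ZFP36 proteins, which bind AU-rich elements. TOB2 went from 69.3, 79.4 and 80.8 CPM to 27.2, 27.1 and 28.2 CPM (log2 -1.48 ± 0.08, adjusted p = 1.6e-06). ZFP36L1 fell by 1.09, TOB1 by 1.01 and BTG1 by 0.98 beside BTG2, and TOB1 and BTG1 share exon bases with neighbouring noncoding genes. ZFP36L2 (-0.31) and ZFP36 (0.12) were not called. In AID-NXF1 and AID-TPR cells after auxin the median of this list was -0.80 and -0.54, and after ActD it was -0.99.

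Frizzled genes encode the 7-transmembrane Wnt receptors and are in part single-exon genes. They fell in 5 of 8 cases (62.5%, against 11.5% of all genes tested), with a median log2 fold change of -0.99. FZD7 was at 42.3, 33.1 and 34.6 CPM untreated and at 14.9, 13.2 and 14.3 CPM after auxin (log2 -1.37 ± 0.10, adjusted p = 8.9e-06). FZD5 fell by 1.34, FZD1 by 1.15 and FZD2 by 0.82. Among 14 Wnt target genes the direction was mixed, with 3 lower and 2 higher (21.43% and 14.29%, against 11.5% and 3.93% of all genes tested). ASCL2, a transcription factor of intestinal stem cells, went from 36.4, 39.6 and 50.8 CPM to 12.8, 17.0 and 18.9 CPM (log2 -1.38 ± 0.15), RNF43, a ubiquitin ligase that removes Frizzled receptors, fell by 1.21, and SP5 fell by 0.90. AXIN2, the negative feedback gene of the pathway, rose by 0.61, and PROX1 rose by 0.65, a call lost without untreated replicate 3 (0.56). MYC, at -0.03, was not called. RNF43, AXIN2 and PROX1 share exon bases with other genes.

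Falls outside these families included KCTD genes and single-exon genes. Of 16 KCTD genes, many of them substrate adaptors of cullin ligases, 6 fell and none rose (37.5% lower, against 11.5% of all genes tested). KCTD21 was at -1.43 and KCTD11 at -1.41, and both share exon bases with another gene, as does BORCS6. FJX1, a secreted single-exon gene, was at 22.9, 30.4 and 29.3 CPM untreated and 13.2, 14.4 and 14.4 CPM after auxin (log2 -0.98 ± 0.11, adjusted p = 0.0001). HPS6, a single-exon subunit of BLOC-2, fell by 1.99, KBTBD6 by 1.72 and BORCS6 by 1.88. Of 17 export factors, NXT1, the 2-exon gene of the NXF1 partner, fell from 20.5 ± 1.8 to 12.2 ± 0.903 CPM (log2 -0.74 ± 0.10, adjusted p = 0.00027), and DDX39A, a helicase paralogous to the TREX helicase DDX39B, rose to 176, 176 and 189 CPM (log2 0.55 ± 0.07, adjusted p = 0.00015). The other 15 export factors were not called, and neither were 29 of 30 pore proteins; NUP205 rose by 0.41, a call lost under scaling by library totals.

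Immediate early genes respond to growth factor and stress signals without new protein synthesis. Of 14 such genes on the list used here 8 rose and none fell (57.14% higher, against 3.93% of all genes tested). Their median log2 fold change was 0.75. The count covers only the listed genes: IER5, named as an immediate early response gene but not on the list, was called lower (log2 -2.05). FOS was at 6.48, 6.60 and 6.15 CPM untreated and at 35, 45.8 and 41.2 CPM after auxin (log2 2.66 ± 0.11, adjusted p = 9.2e-07). EGR1, a zinc finger transcription factor, went from 24.4, 33.6 and 25.4 CPM to 90.3, 177 and 122 CPM (log2 2.22 ± 0.22, adjusted p = 3.7e-05). Neither gene had overlapping groups, though EGR1 was spread more widely over the auxin libraries. EGR2, DUSP1, ATF3, JUN and IER3 rose by 1.61, 1.05, 0.75, 0.74 and 1.41, and IER3 shares exon bases with IER3-AS1. FOSB was highest in 1 auxin library: it was at 1.10, 0.557 and 1.20 CPM untreated and at 2.08, 9.68 and 2.16 CPM after auxin, with a log2 fold change of 2.27 that was 1.17 without auxin replicate 2. The FOSB call was kept there and lost without untreated replicate 2 (log2 2.00, adjusted p = 0.0631). JUNB (0.11), IER2 (0.05), FOSL1 (0.16), EGR3 (0.71) and ZFP36 (0.12) were not called.

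The promoter of EGR1 is shown because EGR1 was among the largest rises of this list and the window holds the motif bound by serum response factor. In the RefSeq promoter set (GRCh38.p14), each window spans 300 bases around the start of a gene, here chr5:138465229-138465528 on the plus strand. Capitals mark 2 CArG boxes, searched on both strands by the consensus of that name, which began 105 and 83 bases before the start.
EGR1: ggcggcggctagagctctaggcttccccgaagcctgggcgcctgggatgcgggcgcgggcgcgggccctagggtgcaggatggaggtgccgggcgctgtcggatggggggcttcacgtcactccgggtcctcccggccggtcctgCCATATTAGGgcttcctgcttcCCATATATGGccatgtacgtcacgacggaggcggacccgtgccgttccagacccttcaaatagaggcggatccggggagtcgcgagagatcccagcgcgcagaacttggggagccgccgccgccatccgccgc
A CArG box was in 453 of 34961 promoters (1.296%) and in 2 of the 10 listed for 7 of the immediate early genes called higher. The window of FOS held none. A match describes letters only, and no match says nothing of the factor.

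Lists of signalling targets held a few rises each, and their counts are set against 3.93% of all genes called higher and 11.5% called lower. Of 10 YAP/TEAD target genes 4 rose and 1 fell: CCN1, a matricellular protein, went from 167, 177 and 113 CPM to 390, 546 and 358 CPM (log2 1.5 ± 0.18, adjusted p = 0.00017), CCN2 rose by 1.01 and AMOTL2 by 0.62. The call of CCN2 was lost without untreated replicate 1 (0.96) or 3 (0.89), with DESeq2 (1.03, adjusted p = 0.0655) and under scaling by library totals (0.91, adjusted p = 0.0522). AJUBA fell by 0.67. CCN2, AMOTL2 and AJUBA share exon bases with other genes. Among 16 EGFR ligands and SPRY, SPRED and DUSP feedback genes, HBEGF (1.45), SPRED3 (1.07) and DUSP6 (0.89) rose (3 of 16, or 18.75%) and DUSP7 fell (-0.86). DUSP6, the phosphatase of ERK, was at 364, 430 and 340 CPM untreated and 561, 903 and 643 CPM after auxin. ID1 (0.99), ID3 (0.80) and SMAD7 (0.65), which are targets of BMP and TGF-beta signalling, rose, while BAMBI, a pseudoreceptor that dampens the same pathways, fell by 0.70, so that 3 of 8 genes of this list rose and 1 fell. NFKBIA rose by 0.83 and BIRC3 fell by 0.83 among 12 NF-kappaB targets, of which 2 rose, IER3 being the other one, and 1 fell. SLC2A1, the glucose transporter GLUT1, rose from 577 ± 103 to 1043 ± 189 CPM (log2 0.85 ± 0.14) and ADM by 0.59, the 2 rises among 12 hypoxia genes (16.67%).

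The integrated stress response genes moved in both directions, 4 of 16 lower and 3 higher (25% and 18.75%, against 11.5% and 3.93% of all genes tested). CEBPB, which shares exon bases with CEBPB-AS1, fell by 1.52, CHAC1 by 1.4 and CEBPG by 1.01, whereas DDIT4, an inhibitor of mTORC1, rose by 1.34. GDF15, a stress-induced cytokine, was at 91.1, 134 and 103 CPM untreated and at 116, 355 and 232 CPM after auxin (log2 1.10 ± 0.31, adjusted p = 0.022). The GDF15 groups overlapped. The GDF15 call was lost without untreated replicate 1 (1.00) or 3 (1.07) and without auxin replicate 2 (0.67) or 3 (1.11), and with DESeq2 (1.11, adjusted p = 0.0507), and the microRNA gene MIR3189 lies within it. PPP1R15A (log2 1.33) would count as a rise but was removed with the genes called in DLD-1 cells. HSPA1B fell by 0.91 (50.6, 25.7 and 36.2 to 23.2, 17.7 and 19 CPM), and since HSPA1A is a near-identical copy, the 2 cannot be separated; the other 14 heat shock protein genes were not called. The NRF2 target OSGIN1 fell by 1.26, with the other 10 targets not called, and MVD, an enzyme of cholesterol synthesis, fell by 0.57, a call lost without untreated replicate 2 (-0.48) or auxin replicate 1 (-0.44).

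Among the called genes with a symbol, at least 50 counts on average and no overlap of the groups, the largest rise was that of STMND1, a stathmin-like gene, at 0.319, 0.235 and 0.209 CPM untreated and 1.83, 2.92 and 2.30 CPM after auxin (log2 3.20 ± 0.28, adjusted p = 1.9e-05). PRDM1, a transcriptional repressor best known from B cells, was at 2.33 ± 0.579 CPM untreated and 11.4 ± 2.42 CPM after auxin (log2 2.28 ± 0.20). In the libraries of parental cells, taken as labelled, the same 2 genes had log2 fold changes of -2.58 and -1.25. Neither was called there (adjusted p = 0.105 and 0.657, edgeR). Their values were 2.28 and 1.08 in AID-NXF1 cells and 2.26 and 1.45 in AID-TPR cells. RASSF2, a RAS-association tumour suppressor, rose by 2.61, SMIM47 by 1.99, FER1L5 by 1.95, the skeletal actin gene ACTA1 by 1.88 and CNTF by 1.87. All of these were below 3 CPM when untreated. FER1L5 and CNTF share exon bases with KANSL3 and ZFP91-CNTF.

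Replication-dependent histone genes formed the main exception to the fall of single-exon genes. Of 54 tested 34 rose and none fell, against 3.93% of all genes called higher, and they were 34 of the 36 single-exon protein-coding genes that rose. The study itself had singled out histone messages in these libraries, so the count is not independent evidence of its direction. Near-identical copies can share or lose reads, which makes single members less certain than the group. The median log2 fold change was 0.47, the quartiles were 0.36 and 0.60, and 50 of 54 were above 0. H2B genes rose in 13 of 15 cases, H2A in 11 of 14, H4 in 5 of 12, H3 in 3 of 9 and H1 in 2 of 4. None of 11 replacement variants, which are made outside S phase from polyadenylated messages, was called, and their median was 0.12. Without auxin replicate 3, 48.15% of the 54 genes were called higher, and without untreated replicate 3, 77.78%; under scaling by library totals it was 44.44%.

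H2AC4 was at 118, 115 and 147 CPM untreated and at 247, 198 and 281 CPM after auxin (log2 0.94 ± 0.13, adjusted p = 0.00041). H2AC8 rose by 0.83, H2AC25 by 0.78, H2BC14 by 0.86, H2BC13 by 0.70 and H2BC17 by 0.70. H3C12, at 411, 480 and 538 CPM untreated, was at 691, 678 and 803 CPM after auxin (log2 0.60 ± 0.10), and it shares exon bases with H2AC17. No auxin library of these genes fell within the untreated range. The linker histone genes rose less: H1-2 by 0.43, from 506, 566 and 694 to 739, 747 and 896 CPM, and H1-3 by 0.46. The H1-2 call was lost without untreated replicate 1 (0.35) or 2 (0.41) or auxin replicate 3 (0.34), and the H1-3 call without auxin replicate 3 (0.39). Under scaling by library totals both fell below the fold needed for a call (0.325 and 0.353).

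The 3′ ends of histone genes are shown because their hairpin replaces the poly(A) tail. A search for a perfect stem of 6 bp around a loop of 4 nt in the last 150 nt of the canonical transcript found one in 51 of the 54 genes, in 1 of 11 replacement variants, in 1211 of 13076 other protein-coding genes (9.261%) and in 10 of 127 other single-exon genes called lower. The 3 without one, H2AC11, H2AC15 and H2BC21, were all called higher, as were 31 of the 51 with one. With a match in nearly all of the 54 genes, the search could not divide those that rose from those not called. It also misses imperfect stems and stems further from the annotated end, so no match does not show that a hairpin is absent. Capitals mark the stem, with up to 5 bases on each side, written as DNA 5′ to 3′ from GENCODE 44 transcripts (GRCh38).
H2AC4 (chr6:26033093-26033118, minus strand): gcaaaGGCTCTtttcAGAGCCaccta
H2BC4 (chr6:26123467-26123492, minus strand): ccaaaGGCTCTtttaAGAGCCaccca
H4C13 (chr6:27873148-27873173, minus strand): tcaaaGGCCCTtctcAGGGCCaccca
H1-2 (chr6:26055740-26055764, minus strand): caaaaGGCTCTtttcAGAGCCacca
The stem and loop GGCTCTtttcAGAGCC occurred in 31 of the 51 genes and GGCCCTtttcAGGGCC in 8; H4C13 has a form found in 1 gene. H2BC4 was not called, and the other 3 genes shown rose.

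Promoters of these genes also shared letters that the grouping did not use. Of the 34 genes called higher, 32 had a promoter window in the RefSeq set, and some had more than 1, so that the number of windows was also 34. TATAAA was in 25 of these windows, CCAAT in 31 and the octamer ATTTGCAT in 18, each on either strand, against 11.533%, 34.564% and 1.768% of 34961 windows. Of the 54 genes tested 49 had a window, and their 53 windows held the motifs in 36, 45 and 23 cases. The window of H2AC4 (chr6:26033569-26033868, minus strand, GRCh38.p14, RefSeq) has TATAAA 30 bases before the start, CCAAT or its complement at 4 places and the complement of the octamer. Capitals mark these matches.
H2AC4: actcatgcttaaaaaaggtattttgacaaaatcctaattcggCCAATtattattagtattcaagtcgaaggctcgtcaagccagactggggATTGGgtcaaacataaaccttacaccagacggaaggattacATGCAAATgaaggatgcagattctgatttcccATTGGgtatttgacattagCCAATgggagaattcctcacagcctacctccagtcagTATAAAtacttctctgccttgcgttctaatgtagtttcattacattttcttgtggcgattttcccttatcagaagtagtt

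Genes of the cell cycle stayed below the fold needed for a call. None of 13 S phase genes and none of 15 mitotic genes was called, against 11.5% of all genes tested called lower and 3.93% higher. Lists this short say little by having no calls. Their median log2 fold changes were 0.11 and 0.22, with 11 and 14 members above 0. An adjusted p below 0.05 in edgeR, without the fold, was reached by 1 and 4 of them. SLBP, which binds the histone hairpin, was at -0.04. Of 15 histone processing factors, LSM11, a subunit of the U7 particle that cleaves histone messages, fell from 13.5, 13.6 and 13.9 CPM to 4.61, 4.85 and 4.35 CPM (log2 -1.57 ± 0.10, adjusted p = 2.9e-06). CSTF2T, a single-exon paralogue of the cleavage factor CSTF2, fell by 0.86. The other 13 were not called, so the share called lower was 13.33%, against 11.5% of all genes tested.

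**Figure D4:**
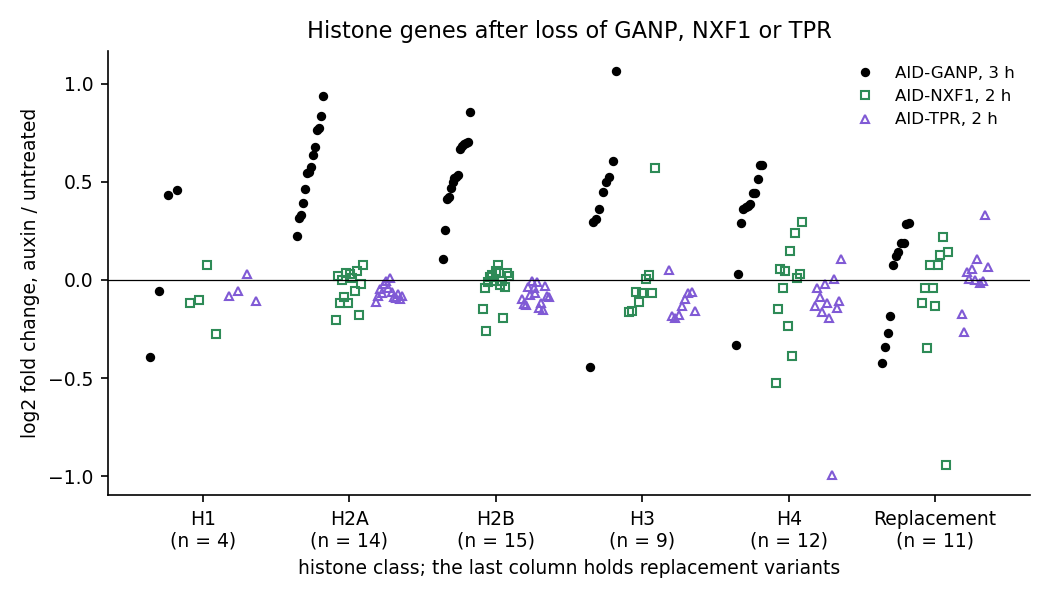
Log2 fold change of single histone genes after auxin in AID-GANP (black circles, 3 h), AID-NXF1 (green squares, 2 h) and AID-TPR cells (violet triangles, 2 h), by histone class, with replacement variants at the right. The black circles of the 54 replication-dependent genes lie mostly above 0 (median 0.47), while the medians in the other lines are -0.01 and -0.08.

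Housekeeping genes showed small differences below the fold needed for a call. None of 81 cytosolic ribosomal protein genes and none of 78 nuclear genes of oxidative phosphorylation was called, with median log2 fold changes of 0.23 and 0.15 and 79 and 76 members above 0. RPL3 was at 929, 1122 and 1102 CPM untreated and at 1085, 1333 and 1336 CPM after auxin, so its groups overlapped, while the auxin library was the higher one in each of the 3 pairs of the same replicate number. An adjusted p below 0.05 without the fold was reached by 30 of the 81 ribosomal protein genes and 10 of the 78 genes of oxidative phosphorylation. These small positive values stood against a median of 0.01 over all genes and shrank to 0.12 and 0.05 under scaling by library totals. Of 15 genes of SR proteins and CLK kinases only SRSF7 was called, with a rise of 0.59. Their log2 fold changes ranged from -0.39 to 0.59, and 5 had an adjusted p below 0.05 in edgeR. CLK3 was among the genes called in DLD-1 cells, so it could not be called here. Of 9 listed long noncoding RNAs, among them MALAT1 (0.17) and NEAT1 (0.39), none was called. Over all genes tested 11.5% were called lower and 3.93% higher, so a list this short says little about such RNAs.

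**Figure D5:**
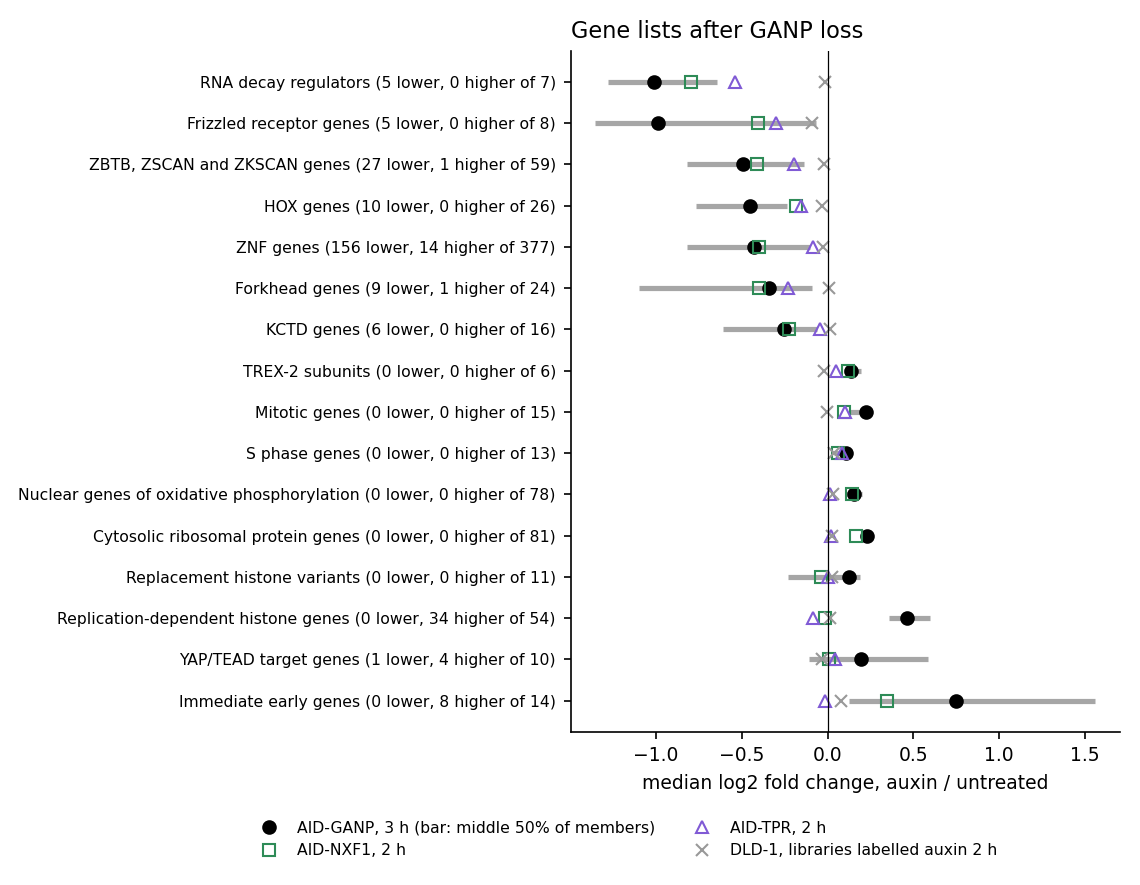
Median log2 fold change of 16 gene lists after auxin in AID-GANP cells (black circles; grey bar, lower to upper quartile of the members) and in AID-NXF1, AID-TPR and DLD-1 cells; numbers beside the names give calls in AID-GANP cells. RNA decay regulators and Frizzled genes lie lowest (-1.01 and -0.99) and immediate early genes highest (0.75).

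The lncRNA genes had shares close to those of all genes tested. Of 2884 lncRNA genes 336 fell and 120 rose (11.65% and 4.161%, against 11.5% and 3.93%; median -0.05), and the share that fell was 10.57% with 1 exon, 14.9% with 2 and 9.222% with 3 or more. Among 211 snoRNA genes 3 fell and 13 rose (1.422% and 6.161%), with a median of 0.17. SNORD65 had 7.15 ± 1.28 CPM untreated and 17.4 ± 0.863 CPM after auxin (log2 1.29 ± 0.12), and it shares exon bases with its host gene SNHG29. Of 26 snoRNA host genes of the SNHG family 2 rose (7.692%) and none fell. Of 542 processed pseudogenes, intronless copies of messages, 23 fell and 33 rose (4.244% and 6.089%, median 0.22). RNY1, a Y RNA made by RNA polymerase III, rose by 0.49.

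Loss of NXF1 was compared first. The median log2 fold change in AID-NXF1 cells was -0.46 over the genes called lower in AID-GANP cells and 0.29 over those called higher. These genes were chosen by their AID-GANP values, which favours larger changes there, so such medians do not rank the lines. The interaction term of line and auxin was past an adjusted p of 0.05 for 243 genes with a higher value in AID-GANP cells (1.36%) and 223 with a lower one (1.25%); with replicate number as a block, which pairs the libraries of both lines, the counts were 1614 and 1071. Of 234 single-exon genes other than histone genes, 48 were lower in AID-GANP cells by the interaction and none higher (112 and 2 with the block). FJX1 was at -0.98 in AID-GANP and -0.08 in AID-NXF1 cells (difference -0.86, adjusted p = 0.0034), HPS6 at -1.99 and -0.65 (difference -1.29, adjusted p = 0.00024). ZNF genes, by contrast, differed in both directions, 25 higher and 14 lower of 377 (73 and 55 with the block), and their medians were -0.43 and -0.40. None of the 14 immediate early genes differed at an adjusted p below 0.05, but with the block 8 were higher in AID-GANP cells and none lower.

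Histone genes differed from both other lines. The interaction was higher in AID-GANP than in AID-NXF1 cells for 29 of 54 replication-dependent histone genes and lower for none (47 and 0 with the block), and higher than in AID-TPR cells for 31 and lower for 1 (47 and 2 with the block). H2AC4 was at 0.94 after GANP loss, 0.08 after NXF1 loss and -0.08 after TPR loss, with differences of 0.90 (adjusted p = 0.011) and 1.01 (adjusted p = 0.005). The medians of the 54 genes were 0.47, -0.01 and -0.08. After 2 h of ActD their median was lower, at -1.146. That median includes H2AC15, whose ActD value was exactly 0.

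Against TPR loss most of the differences were lower values in AID-GANP cells. The median in AID-TPR cells was -0.26 over the genes called lower in AID-GANP cells and 0.15 over those called higher. Here too the genes were chosen by their AID-GANP values, so the medians do not rank the lines. The interaction was lower in AID-GANP cells for 918 genes (5.15%) and higher for 109 (0.612%), and with the block for 2772 and 1165. ZNF genes contributed 96 lower and 3 higher differences of 377 (196 and 15 with the block). BTG2 was at -2.27 and -0.82 (difference -1.45, adjusted p = 0.016) and PGGHG at -2.04 and -0.49 (difference -1.56, adjusted p = 0.00064). FOS rose further after GANP loss, 2.66 against 1.29 (difference 1.36, adjusted p = 0.014). Of the 14 immediate early genes 2 were higher by the interaction and none lower, and 9 were higher with the block. For EGR1 the difference of 1.45 had an adjusted p of 0.0576, and with the block it was 1.48 (adjusted p = 1.31e-13, edgeR). Leaving out AID-GANP untreated replicate 3 or auxin replicate 3 brought all differences with AID-TPR from 1027 to 571 and 545.

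In parental DLD-1 cells, libraries labelled auxin 2 h differed from those labelled untreated in 10 genes, all lower (0.0561%) and 0 higher. At an unadjusted p under 0.05 in edgeR, 374 genes were lower and 184 higher, and DESeq2 called 24 genes. The 10 genes that edgeR called were CYP1A1, CYP1B1, CYP1B1-AS1, TIPARP, PPP1R15A, MEGF6, OTUB2, EDC3, CLK3 and C15orf62, of which the first 4 are known as or lie at targets of the aryl hydrocarbon receptor. CYP1A1, a xenobiotic oxidase, went the other way in AID-GANP cells: it was at 55.9, 23.1 and 8.21 CPM untreated and 125, 147 and 118 CPM after auxin, with log2 fold changes of 2.17 there and -3.84 in the parental cells. Of the 10 genes, 8 would have been called higher in AID-GANP cells and were removed from the 700. Over 9 aryl hydrocarbon receptor genes the median log2 fold change was 0.53 in AID-GANP, 0.23 in AID-NXF1 and 0.67 in AID-TPR cells but -0.40 in the parental libraries. Whether the auxin and untreated labels of the parental libraries are the right way round was not tested; if they were exchanged, every parental value given here would change sign and the differences from that line would change with it. Over the genes called lower and higher in AID-GANP cells, again chosen by their values there, the median in the parental libraries was -0.004 and -0.03. The interaction with the parental line was lower for 2392 genes (13.4%) and higher for 1187 (6.66%).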

How the data were processed

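Total RNA depleted of ribosomal RNA was sequenced from 66 libraries, of which 63 were used here, 6 of them for GANP. The values are deposited counts, raw whole numbers per gene that the authors made by aligning reads to GRCh38 and counting over Ensembl 87 genes. CASAVA 1.8.2, STAR 2.6.1c and featureCounts 1.5.2 are named in the submitters' processing notes, and the strand setting is not given in the sources used here. The study describes replicates as independent biological replicates. The 37 mitochondrial genes had no counts in the AID-GANP libraries. Of 58051 gene IDs, 56948 matched GENCODE 44, which gave exons, types and overlaps. Promoters came from RefSeq.

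Genes with over 1 CPM in at least 4 of 60 libraries without ActD were tested (17812, holding at least 99.76% of counts). edgeR 4.0.16 (limma 3.58.1, R 4.3.3) with TMM factors and the quasi-likelihood test compared auxin with untreated libraries, and interaction terms compared lines. Calls required a Benjamini-Hochberg adjusted p below 0.05 together with 1.3 times the untreated level or more, or 0.7 times or less; those also called in DLD-1 were dropped. In differences between lines a call needed the adjusted p alone. On counts simulated for the GANP comparison (17812 genes), the test recovered 48 of 50 genes at a fold of 0.5. At folds of 2, 0.25 and 4 it recovered 50 of 50, with 19 false calls. The changed genes had at least 50 counts on average, and replicates were simulated as independent. Changes of less than 2-fold, where most calls lie, were not simulated. Replicates of the same number deviated together in AID-GANP cells (residual correlations 0.589, 0.575 and 0.497 over 15287 genes). The values were 0.422, 0.217 and 0.497 in AID-NXF1 cells and 0.614, 0.668 and 0.393 in AID-TPR cells. All were above the bound of 0.1, so the numbers were taken to pair these libraries. This rests on the data, not on the labels, and genes that vary together can pass such a bound without pairing. The main fits held no replicate term, and the block was an alternative.

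Members and gene lists were chosen with earlier results of these data known. Genes named are TREX-2 subunits, NXF1, RNAs the study singles out, for each direction the 10 called genes of largest change that have at least 50 counts on average, a symbol and no overlap of the groups, the 4 largest called members of each list or class, the 5 largest differences in each direction between lines, and genes called in DLD-1 cells. Other genes named, mostly list members that were not called, were chosen after their values were seen. The SNHG list was taken over any gene type. The counts of the cholesterol gene list are not reported here. Alternatives were other scalings, filters, DESeq2 1.42.0, a replicate block, one fit over 60 libraries, each library left out, genes without overlaps and thinned libraries. Python 3.11.15, pandas 2.3.3, numpy 2.4.6 and matplotlib 3.10.9 were used for tables and plots.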

Additional observations from a re-analysis of the deposited data

Results flagged for a closer look

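The auxin effect differed between lines for 20 genes singled out as the largest differences in each direction. The measure was the interaction term in edgeR's quasi-likelihood test (adjusted p under 0.05, 3 libraries per group). All 20 also passed with replicate number as a block. The block called more genes in all (2685 against 466 for AID-NXF1, 3937 against 1027 for AID-TPR), so passing it is no separate evidence. Against NXF1 loss, the log2 effect in AID-GANP cells was higher by 2.03 for KLF10, 1.75 for OVOL1, 1.68 for DDIT4, 1.46 for CLCF1 and 1.31 for BHLHE40. It was lower for ZNF579 (-1.39), HPS6 (-1.29), KBTBD6 (-1.26), BORCS6 (-1.14) and CTU1 (-1.12). Against TPR loss it was higher by 1.52 for AATK, 1.49 for FBN1, 1.42 for CNTF, 1.41 for ACP4 and 1.36 for FOS. It was lower for ADAMTS15 (-1.70), PGGHG (-1.56), KLHL25 (-1.47), BTG2 (-1.45) and TRIM68 (-1.43). Auxin was given for 3 h in AID-GANP and 2 h in the other lines, which cannot be told apart from the line.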

How the results depend on the processing

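Calls after GANP loss numbered 2389 to 2717 with each library left out in turn (1815 to 2065 lower, 574 to 746 higher), against 2752. They were 855 (642 lower, 213 higher) among 4725 genes whose span overlaps no other gene and 1273 (950 lower, 323 higher) among 7956 without exon overlap, an alternative chosen after seeing the data; fewer genes were tested in both. Higher calls were 379 with library sizes alone and 1054 with no filter on low counts. With the replicate block 2208 genes were lower and 991 higher, and the block changed no call among 184 named genes. That fit left 2 residual degrees of freedom per gene and its prior degrees of freedom were estimated as infinite, so all genes took the spread of the trend and its p-values for single genes with uneven pairs are too small; in the differences from AID-NXF1 and AID-TPR the blocked prior was 25.8 and 35.2.

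Differences from AID-NXF1 numbered 767 with no filter (404 lower) and 2685 with the replicate block (1614 higher, 1071 lower), against 466; 130 were higher with library sizes alone and 360 lower with DESeq2, and libraries left out gave 319 to 461 (167 to 255 higher, 152 to 230 lower). Differences from AID-TPR numbered 3937 with the block (1165 higher, 2772 lower), against 1027; 243 were higher with DESeq2 and 259 with no filter. Leaving out libraries gave 545 to 991 (67 to 103 higher, 464 to 888 lower); higher ones were 67 without AID-GANP untreated replicate 2, and lower ones 477 without untreated replicate 3 and 464 without auxin replicate 3. Differences from DLD-1 numbered 7129 with the block (3301 higher, 3828 lower), 464 were higher with library sizes alone, and libraries left out gave 2974 to 3549 (881 to 1255 higher, 2093 to 2345 lower). The DLD-1 numbers did not pair those libraries (0.64, 0.0634 and 0.531). DLD-1 calls were 24 with DESeq2, 48 with the block, and 7 to 19 with libraries left out, 19 without DLD-1 untreated replicate 1.

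Among genes whose span overlaps no other gene, 60% of 10 Forkhead, 100% of 5 Frizzled and 66.67% of 3 HOX genes were lower. Medians changed sign there and among genes without exon overlap for KLF (0.6212 and 0.064), replacement histone (-0.0513 and -0.075) and Wnt target genes (-0.5533 and -0.1602), for SR and CLK genes in the former (-0.0467) and for the 1 snoRNA host gene left in the latter (-0.4216). With library sizes alone they changed sign for SR and CLK (-0.0215), Wnt target genes (-0.0336) and protein-coding genes with 6 to 10 (-0.077), 11 to 20 (-0.0384) and 21 or more exons (-0.0094). So did PCID2 (-0.085), CETN3 (-0.022) and EDC3 (-0.048). With libraries left out PCID2 ranged from -0.003 to 0.052, CLCF1 from -0.354 to 0.028 and EDC3 from -0.009 to 0.146. The cause of these changes was not tested.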
